A study of Homo sapiens with 4 samples.

Results

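Binding of the oestrogen-related receptor ERRα was examined at 50 human genes for respiratory complex I, made up of 36 subunits and 14 assembly factors. The genes were taken from a given list, out of 20037 protein-coding genes, and every peak whose summit lay inside one of them or within 10 kb was assigned to it. Chromatin immunoprecipitation with sequencing (ChIP-seq) was done in MDA-MB-231, a triple-negative breast cancer cell line. There were 2 ERRα ChIP replicates from 2 cultures, precipitated from formaldehyde-fixed, sonicated chromatin with a Genetex antibody, and 2 inputs without antibody. All 4 libraries came from cells in DMEM with serum and antibiotics, and the labels name no treatment. The title gives the aim as the identification of ERRα target genes. No ERRα-depleted cells and no gene expression data were analysed here, so a peak records occupancy only.

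Complex I, the NADH:ubiquinone oxidoreductase, is the entry point of electrons from NADH into the mitochondrial respiratory chain. Its N module oxidises NADH, its Q module passes the electrons along iron-sulfur clusters to ubiquinone, and its membrane arm pumps protons. The membrane arm is built from submodules named after the mitochondrially encoded subunits ND1, ND2, ND4 and ND5, while all genes examined here lie in the nuclear genome. Assembly factors help to build the complex without staying in it. ERRα is an orphan nuclear receptor known for its role, with the PGC-1 coactivators, in the transcription of genes for oxidative phosphorylation. It recognises the ERR response element, TNAAGGTCA, where N is any base.

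The values reported are the authors' fold enrichments, the height of the ChIP signal at a peak's summit divided by a background estimated from the inputs. On the assembled chromosomes the list of replicate 1 held 14072 peaks and that of replicate 2 held 12659. Another list gives 10059 peaks that the authors matched between the replicates, and 5070 of them met a threshold of 0.05 on the irreproducible discovery rate (IDR), a measure of how well the ranks of a peak match. A summit is called reproducible below if it passed, and the others are called matched below the threshold. The files hold no read counts, so the depth behind each peak is unknown. The 50 genes had 51 summits in the list of replicate 1, 48 in that of replicate 2, 41 in the matched list and 21 among the reproducible peaks. Every value rests on 2 libraries, and an SD with n = 2 is itself imprecise.

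A reproducible summit lay in or within 10 kb of 19 of the 50 complex I genes (38.0%), against 18.3% of all protein-coding genes. Within 1 kb of a gene start the count was 16 of 50 (32.0%), against 4.31% of all protein-coding genes. The list was chosen with earlier results of these data known, so these differences were not tested. Gene starts came from a RefSeq promoter table that covers 44 of the 50 genes, and for the other 6 the nearest end of the gene was used instead, in the members and in the background alike. Of the 21 reproducible summits at complex I genes, 16 (76.2%) were at a start of their own complex I gene. Of the 3580 reproducible summits in or within 10 kb of any protein-coding gene, 768 (21.5%) were at a start of any such gene. The rules differ, because a complex I summit at a neighbour's start alone was not counted. The median length of the complex I genes was 12598.5 bp, against 24115 bp for all protein-coding genes, and a longer gene offers more room for a summit. The part of gene length in the 10 kb counts was not tested.

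Peaks below the IDR threshold added 15 genes to both counts. In the whole matched list 31 of 50 genes (62.0%) had a summit within 1 kb of a start, against 8.62% of all genes, and 34 (68.0%) had one in the gene or within 10 kb, against 30.8%. In the list of replicate 1 alone, 37 of 50 genes (74.0%) had a summit at a start, against 12.0% of all genes. In that of replicate 2, 32 of 50 (64.0%) did, against 10.7%. With the 10 kb rule the counts were 42 (84.0%) against 38.9% in replicate 1 and 35 (70.0%) against 35.9% in replicate 2. No summit lay within 10 kb in any of these lists for 7 of the 50 genes, NDUFS1 and 6 assembly factors. The share of all protein-coding genes without a summit in every list was not counted.

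**Figure D1:**
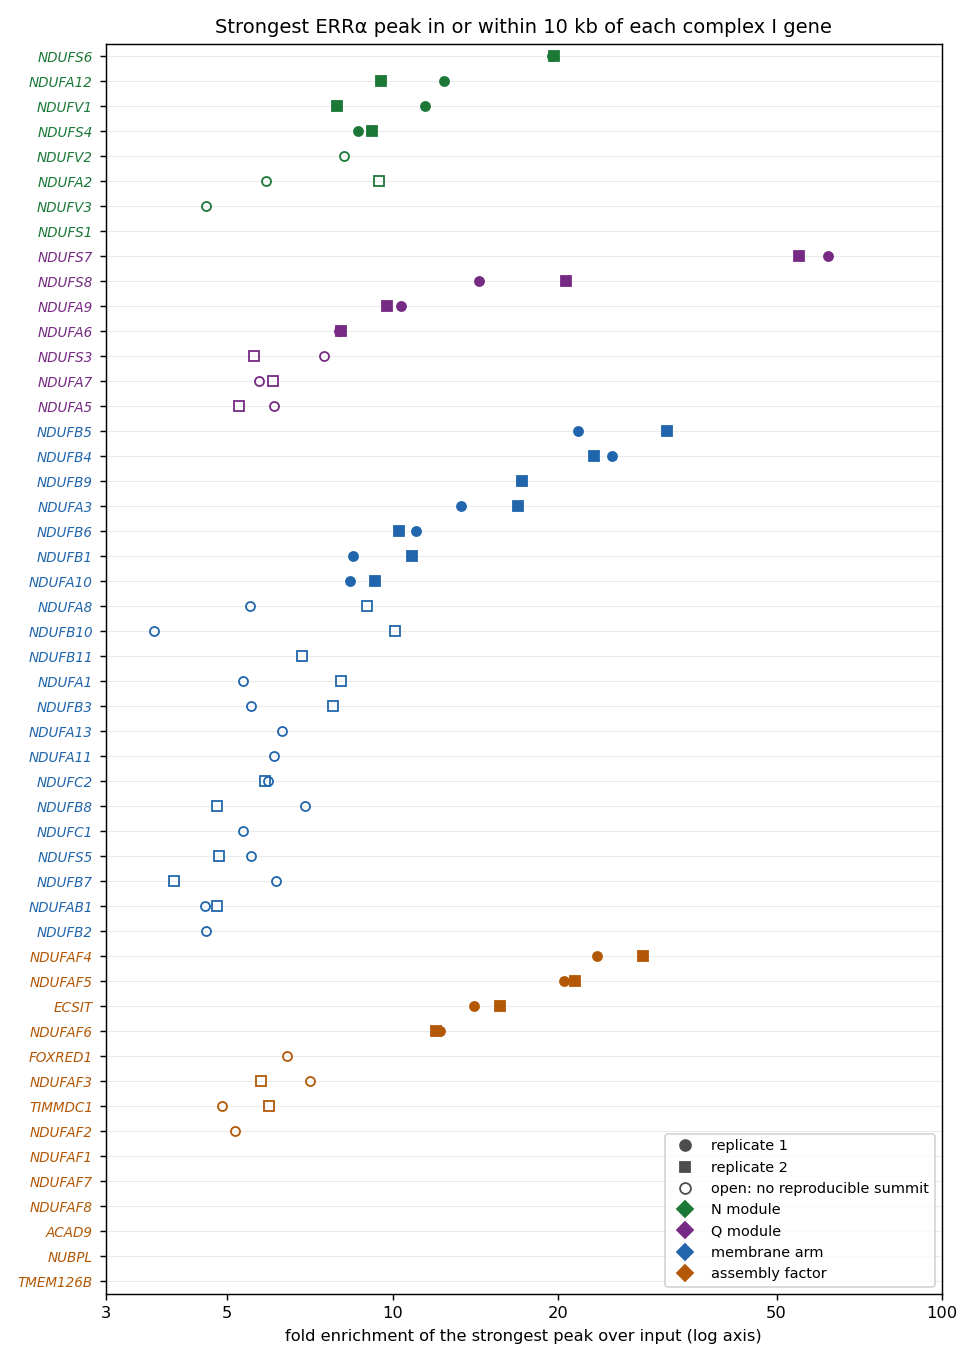
Fold enrichment over input (log axis) of the strongest ERRα peak in or within 10 kb of each complex I gene, with circles for replicate 1 and squares for replicate 2, coloured by class; open symbols mark genes with no reproducible summit and genes with no peak have no symbol. NDUFS7 stands highest at 61.9 and 54.9, and the genes without a symbol are NDUFS1 and 6 assembly factors.

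In the Q module 4 of 7 genes had a reproducible summit at the start (57.1%), against 4.31% of all protein-coding genes. All 7 had a matched one there, against 8.62%. The strongest complex I peak belonged to NDUFS7, the subunit that holds the terminal iron-sulfur cluster before ubiquinone. It had a fold of 61.9 in replicate 1 and 54.9 in replicate 2 (mean 58.4 ± 4.99, SD, n = 2), which ranked 178 by mean fold among the 5070 reproducible peaks. The peak spanned chr19:1383355-1384316 (hg38) and its summit lay 36 bp upstream of the NDUFS7 start, in the promoter. No end of another protein-coding gene was within 1 kb. The promoter is shown from position -200 to -1, with the start base as 0 (RefSeq, GRCh38.p14, chr19:1383707-1383906, plus strand), because it carries the strongest peak. Capitals mark TGACCTT, which is the core of the ERR response element, AAGGTCA, read on the other strand.
NDUFS7: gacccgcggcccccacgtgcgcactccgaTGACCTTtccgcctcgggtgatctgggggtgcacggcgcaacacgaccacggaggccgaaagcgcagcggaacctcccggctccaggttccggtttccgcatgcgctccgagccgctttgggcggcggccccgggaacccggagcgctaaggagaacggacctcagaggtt

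The core in NDUFS7 lay 132 bp from the matched summit, 129 bp from the summit of replicate 1 and 136 bp from that of replicate 2. The letters flanking it do not complete the full element TNAAGGTCA. The next Q-module gene, NDUFS8, encodes a further iron-sulfur subunit and had a reproducible summit 490 bp downstream of its start, inside the gene. Its folds were 14.0 and 14.3 in replicates 1 and 2 (mean 14.1 ± 0.221, SD, n = 2). A higher summit, with 14.3 and 20.7 (17.5 ± 4.48, SD, n = 2), lay 7701 bp from the NDUFS8 start and within 1 kb of the start of TCIRG1, which encodes a proton pump subunit. It was assigned to NDUFS8 by the 10 kb rule alone, and its interval covered 2 peaks in each replicate, of which the stronger is given. A weak matched summit of 6.19 and 5.98 lay farther on, inside TCIRG1.

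NDUFA9, an accessory subunit that binds a nucleotide cofactor, had 10.4 and 9.75 at 36 bp downstream of its start (10.1 ± 0.430, SD, n = 2). NDUFA6, an accessory subunit of the LYR family, had 7.99 and 8.06 at 170 bp downstream (8.02 ± 0.0462, SD, n = 2), the lowest mean of the reproducible summits of complex I. NDUFS3, a core subunit, and the accessory subunits NDUFA5 and NDUFA7 had matched summits below the threshold, at 54 bp upstream, 86 bp downstream and 131 bp upstream of a start. Their mean folds were 6.55 ± 1.35 for NDUFS3, 5.67 ± 0.598 for NDUFA5 and 5.88 ± 0.236 for NDUFA7 (SD, n = 2 each). For NDUFA5 the summit was at an internal start, not at the most upstream one. The 7 Q-module genes thus ran from a mean of 58.4 at NDUFS7 to 5.67 at NDUFA5.

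In the N module, 4 of 8 genes (50.0%) had a reproducible summit, against 18.3% of all protein-coding genes. All 4 had it at the start, against 4.31%. NDUFS6, a zinc-binding accessory subunit, was highest, with 19.5 and 19.6 in replicates 1 and 2 (19.5 ± 0.114, SD, n = 2) at chr5:1801154-1801885, 79 bp downstream of the start. The MRPL36 gene, for a mitochondrial ribosomal protein, has an end within 1 kb of the same summit. A core of the element lies 52 bp from that summit, within the transcribed part, and is shown with its surroundings from position 13 to 42 (RefSeq, GRCh38.p14, chr5:1801420-1801449, plus strand), with the core in capitals.
NDUFS6: ggcggcggcgaTGACCTTctgccggctgct

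The other N-module genes with a reproducible summit had lower folds. NDUFA12, an accessory subunit, had 12.4 and 9.52 at 150 bp downstream of its start (11.0 ± 2.02, SD, n = 2). NDUFV1, which carries the flavin that accepts electrons from NADH, had 11.5 and 7.91 at 28 bp downstream (9.69 ± 2.51, SD, n = 2). NDUFS4, an accessory subunit, had 8.65 and 9.16 at 52 bp downstream (8.90 ± 0.361, SD, n = 2). With an IDR score of 553, where 540 is the threshold, NDUFV1 was the complex I summit just inside it. The summit just outside it, with a score of 412, was that at the start of NDUFA3.

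The remaining N-module genes had no reproducible summit. NDUFA2, an accessory subunit, had a matched summit below the threshold with 5.87 and 9.44 at 198 bp downstream of its start. The iron-sulfur subunit NDUFV2 and the accessory subunit NDUFV3 had a summit at the start in replicate 1 alone, with folds of 8.15 and 4.57. NDUFS1, the iron-sulfur subunit of the N module with the most clusters, had no summit within 10 kb in either replicate.

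**Figure D2:**
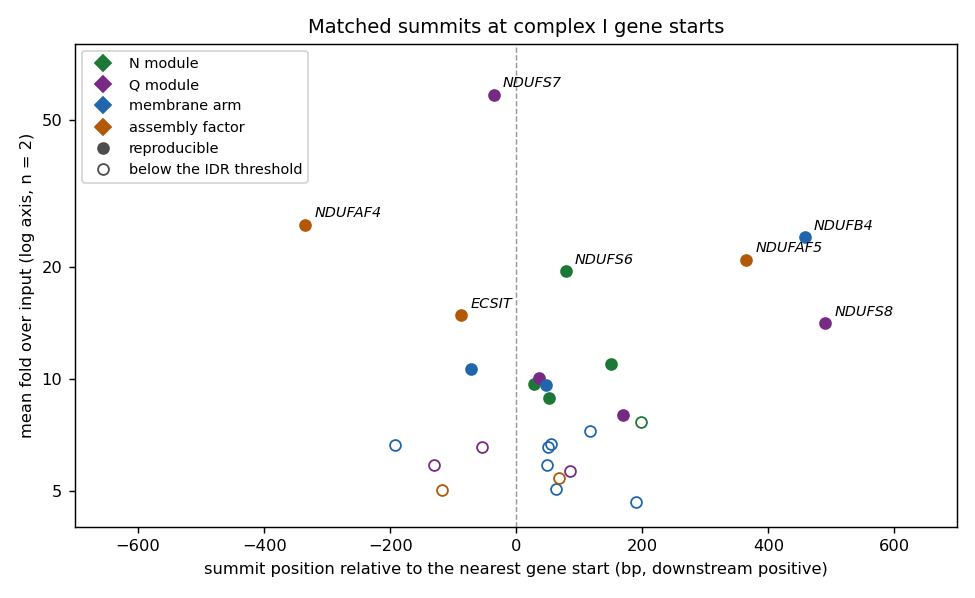
Distance of each matched summit within 1 kb of a start of its complex I gene from the nearest such start (bp, downstream positive; genes with no start in the promoter table and summits farther away are not drawn) against its mean fold over input (log axis, 2 replicates), coloured by class, with filled circles for reproducible summits and open circles for those below the IDR threshold. The open circles drawn lie within 200 bp of the start at mean folds up to 7.65, and NDUFAF4, NDUFAF5, NDUFB4 and NDUFS8 lie farther out.

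The membrane arm had a reproducible summit near 7 of 21 genes (33.3%), against 18.3% of all protein-coding genes. Of these, 5 (23.8% of the 21) had one at a start, against 4.31%. The ND4 submodule had 4 of 6 genes called at a start, the ND5 submodule 1 of 6, and the ND1 and ND2 submodules 0 of 4 and 0 of 5. In the whole matched list the submodule counts were 4 of 6, 5 of 6, 3 of 4 and 2 of 5, against 8.62% of all genes. Thus 10 of the 15 genes of the ND1, ND2 and ND5 submodules had a matched summit at the start. Only 1 of them, NDUFB9, had a reproducible one. With 4 to 6 genes a submodule, no difference between submodules was tested.

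NDUFB5, an accessory subunit of the ND4 submodule, had the highest membrane-arm peak, with 21.8 and 31.6 in replicates 1 and 2 (26.7 ± 6.94, SD, n = 2) at chr3:179604074-179605591. Its summit was 165 bp from the nearest end of NDUFB5 and also within 1 kb of the start of MRPL47, a mitochondrial ribosomal protein gene. NDUFB4, of the same submodule, had 25.1 and 23.2 (24.2 ± 1.34, SD, n = 2) at chr3:120596177-120597082, with the summit 458 bp downstream of its start. NDUFB4 was the one gene of the 44 with a full ERR response element in its promoter window. The promoter is shown from position -170 to -1 (RefSeq, GRCh38.p14, chr3:120596166-120596335, plus strand), with the element TGAAGGTCA in capitals.
NDUFB4: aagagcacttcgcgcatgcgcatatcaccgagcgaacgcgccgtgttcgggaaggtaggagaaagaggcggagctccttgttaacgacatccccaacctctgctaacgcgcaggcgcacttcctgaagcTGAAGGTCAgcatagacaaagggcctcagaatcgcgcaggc

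The element at NDUFB4 starts 41 bp upstream of the gene start and lies within the called peak, but 495 bp from the matched summit. The distances from the summits of replicates 1 and 2 were 506 and 484 bp. A second matched summit, below the threshold, lay 1337 bp downstream of the NDUFB4 start with 6.34 and 7.52. The sequence under the summits of NDUFB4 was outside the promoter window and was not analysed here.

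NDUFB6, also of the ND4 submodule, had 11.0 and 10.3 (10.6 ± 0.518, SD, n = 2) at 72 bp upstream of its start. A weaker reproducible summit of 10.0 and 9.25 lay beyond its other end, inside TOPORS and within 1 kb of the start of SMIM27. The NDUFB6 promoter is shown from position -120 to -1 (RefSeq, GRCh38.p14, chr9:32573160-32573279, minus strand, written 5′ to 3′ on the gene's strand) as an example of a summit in a window that holds no AAGGTCA. The single capital marks the summit base.
NDUFB6: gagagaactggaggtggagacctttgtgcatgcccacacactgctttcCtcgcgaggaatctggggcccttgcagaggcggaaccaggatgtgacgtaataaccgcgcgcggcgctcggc

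NDUFB1, a small ND4-submodule subunit, had 8.48 and 10.8 at 47 bp downstream of its start (9.65 ± 1.66, SD, n = 2), and the start of CPSF2, a gene of mRNA 3′ end processing, was within 1 kb. NDUFB9, the LYR subunit of the ND5 submodule, had 17.1 and 17.2 at 44 bp beyond its nearest end (17.1 ± 0.0282, SD, n = 2), inside the neighbouring gene TATDN1. Its folds were the closest between replicates of the 21 reproducible summits. The other called genes of the membrane arm had summits away from their starts. NDUFA3, of the ND1 submodule, had a reproducible summit of 13.3 and 16.9 (15.1 ± 2.55, SD, n = 2) 5809 bp upstream, inside the neighbouring gene OSCAR, beside a weak one of 6.85 and 6.29 at its own start. NDUFA10, of the ND2 submodule, had 8.37 and 9.27 (8.82 ± 0.632, SD, n = 2) 97753 bp downstream of its start, inside the gene.

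Membrane-arm genes with a matched summit at the start below the threshold were NDUFA1, NDUFA3, NDUFA8, NDUFAB1, NDUFB3, NDUFB7, NDUFB8, NDUFC2 and NDUFS5. The highest mean fold among them was 7.23 ± 2.46 at NDUFA8 and the lowest 4.66 ± 0.168 at NDUFAB1, the mitochondrial acyl carrier protein (SD, n = 2 each). NDUFB10 had a summit of 10.1 within 2 bp of its start in replicate 2, and the list of replicate 1 held none there. Its matched summit, with 3.68 and 3.61, lay 5140 bp downstream in RPS2, a ribosomal protein gene. NDUFA11, NDUFA13, NDUFB2 and NDUFC1 had summits in replicate 1 alone, with folds of at most 6.29, and NDUFB11 had one of 6.85 in replicate 2 alone.

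The assembly factors had a reproducible summit near 4 of 14 genes (28.6%), against 18.3% of all protein-coding genes, and at the start of 3 (21.4%), against 4.31%. The order of the classes depended on the threshold: at an IDR of 0.01 a summit lay near 4 of 14 assembly factors, 2 of 8 N-module genes, 5 of 21 membrane-arm genes and 3 of 7 Q-module genes. At that threshold the share of all protein-coding genes was 14.9%. The median of the strongest summit was 17.9 over the 4 assembly factors and 10.95 over the 15 called subunits, against 13.96 over the 3669 called protein-coding genes. NDUFAF4, a factor that acts with NDUFAF3 early in the assembly of the Q module, had 23.6 and 28.6 (26.1 ± 3.54, SD, n = 2) at chr6:96897251-96898722. Its summit was 335 bp upstream of the NDUFAF4 start and inside KLHL32, whose start is within 1 kb. NDUFAF5, an enzyme that hydroxylates an arginine of NDUFS7, had 20.6 and 21.5 (21.0 ± 0.641, SD, n = 2) at 365 bp downstream of its start, with ESF1, a gene of ribosome biogenesis, within 1 kb.

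ECSIT, part of the assembly complex for the ND2 submodule, had 14.1 and 15.7 (14.9 ± 1.15, SD, n = 2) at chr19:11528579-11529248. Its summit lay 87 bp upstream of the more downstream of its 2 RefSeq starts, inside the gene. Among the complex I promoters, this was the closest match between a summit and an ERR core, at a distance of 9 bp from the matched summit, 13 bp in replicate 1 and 5 bp in replicate 2. The promoter is shown from position -120 to -1 of that start (RefSeq, GRCh38.p14, chr19:11528866-11528985, minus strand, written 5′ to 3′ on the gene's strand), with the core in capitals.
ECSIT: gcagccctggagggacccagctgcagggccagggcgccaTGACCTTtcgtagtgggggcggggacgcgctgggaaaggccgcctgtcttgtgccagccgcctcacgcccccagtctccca

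A factor needed for the ND1 submodule, NDUFAF6, had 12.2 and 12.0 (12.1 ± 0.139, SD, n = 2) deep inside the gene, 60308 bp from its nearest end, and a weaker matched summit of 5.19 and 4.25 farther in. NDUFAF3 and TIMMDC1 had matched summits below the threshold at a start, with mean folds of 5.03 ± 1.03 and 5.42 ± 0.744 (SD, n = 2 each). FOXRED1 (6.42) and NDUFAF2 (5.15) had a summit in replicate 1 alone. No summit within 10 kb was found in either replicate for NDUFAF1, NDUFAF7, NDUFAF8, ACAD9, NUBPL and TMEM126B. Of these, NDUFAF1, ACAD9 and TMEM126B act in the same assembly complex as ECSIT.

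Summits at complex I starts lay close to the start base. Among the 14 genes with a known start and a reproducible summit within 1 kb, the median absolute distance was 83 bp, against 361 bp for the 715 protein-coding genes counted the same way. Within 200 bp were 10 of 14 (71.4%), against 30.6% of the 715. For matched summits below the threshold the figures were 86.0 bp against 310.0 bp, with 13 of 13 complex I genes within 200 bp, against 35.9% of 733 genes. The 4 reproducible summits farther than 200 bp were those of NDUFAF4, NDUFAF5, NDUFB4 and NDUFS8, and of these NDUFB4, NDUFAF4 and NDUFAF5 had mean folds above 20. The comparison is descriptive and was not tested.

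Some summits cannot be given to complex I alone. Of the 16 genes called at a start, 7 (43.8%) shared each such summit with the end of another protein-coding gene within 1 kb, against 26.9% of the 864 genes called. They were NDUFB5 with MRPL47, NDUFS6 with MRPL36, NDUFB1 with CPSF2, NDUFB9 with TATDN1, NDUFA9 with AKAP3, NDUFAF4 with KLHL32 and NDUFAF5 with ESF1. Without these summits 9 of 50 complex I genes were called, against 3.15% of all genes. That rule looked at protein-coding neighbours only. Among the 9, the start summits of NDUFA6, NDUFV1 and NDUFS8 lay within 1 kb of the starts of NDUFA6-DT, NDUFV1-DT and GLTC1, respectively. MRPL47 and MRPL36 are themselves genes of mitochondrial translation. Some matched summits at a start below the threshold also lay within 1 kb of another protein-coding gene's end. They were those of NDUFA1 with RNF113A, NDUFA2 with IK and TMCO6, NDUFA7 with RPS28, NDUFA8 with MORN5 and NDUFB3 with HYCC2. The others were those of NDUFC2 with NDUFC2-KCTD14, NDUFS3 with KBTBD4 and NDUFAF3 with DALRD3. The share over all genes was not counted for such summits.

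The median peak height at complex I genes was close to that over all protein-coding genes. The median fold of the strongest summit over the 19 complex I genes with one was 14.9, against 13.96 over all protein-coding genes with one. It was 10.95 over the 15 subunits and 17.9 over the 4 assembly factors. Medians were higher for complex II (22.4, 2 genes), III (17.1, 6 genes), IV (32.0, 10 genes) and V (18.0, 10 genes). The 3 other complex I biogenesis factors near a summit had 27.6. These differences were not tested. The ratio of replicate 1 to replicate 2 over the 21 reproducible complex I summits had a median of 0.992 and ran from 0.689 at NDUFB5 to 1.45 at NDUFV1, against a median of 1.03 over all 5070. Replicate 1 was higher at 8 of the 21 summits, against 2901 of the 5070.

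Few complex I promoters held the ERR response element. Promoter windows of 300 bases, from 250 before to 50 after each start, were searched on both strands for TNAAGGTCA. It was found for 1 of 44 complex I genes (2.27%), NDUFB4, against 0.896% of 15843 protein-coding genes and 3.78% of the 715 genes with a reproducible summit at a start. The shorter core AAGGTCA, which every TNAAGGTCA contains, was found for 5 of 44 (11.4%), against 4.26% of all genes and 12.3% of the 715. The 5 were NDUFA5, NDUFB4, NDUFS6, NDUFS7 and ECSIT, and all but NDUFA5 had a reproducible summit at the start. At NDUFA5 the core is at the most upstream start, 44049 bp from the matched summit. TCAAGGTCA was found for 0 of 44 complex I genes, against 0.335% of all genes and 1.96% of the 715. The bare AGGTCA hexamer, contained in all of these, was found for 10 of 44 (22.7%), against 15.2% and 26.4%.

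Only 6 of the 21 reproducible complex I summits fell inside a promoter window of any gene, as did 183 of all 5070. The windows under those 6 held TNAAGGTCA in 0 cases and AAGGTCA in 2 (33.3%), NDUFS7 and ECSIT, against 16.4% and 42.6% of the 183. The other 4 were the summits of NDUFA9, NDUFB1, NDUFB6 and NDUFV1, with mean folds of 9.65 at NDUFB1 to 10.6 at NDUFB6. No match says only that these letters are missing from a window of 300 bases, and the sequence under the other 15 summits was not analysed here.

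Motifs of other factors were counted in the same windows. The NRF1 core GCGCATGC, of a regulator of nuclear genes for the respiratory chain, was found for 8 of 44 complex I genes (18.2%), against 4.89% of all genes and 6.71% of the 715 genes called at a start. Of the 14 called complex I genes in the table, 6 held it, namely NDUFA6, NDUFB4, NDUFS6, NDUFS7, NDUFAF4 and NDUFAF5. The YY1 motif AAGATGGC was also found for 8 of 44 (18.2%), against 4.66% and 8.25%, and for 4 of the 14. The ETS motif CCGGAAG was found for 8 of 44 (18.2%), against 16.5% and 26.3%, and for 1 of the 14. For the AP-1 motif TGANTCA the count was 2 of 44 (4.55%), against 8.04% and 7.69%, and 1 of the 14. GGGCGG, the Sp1 box, was found for 29 of 44 (65.9%), against 64.3% and 80.1%, and for 4 of the 14 called complex I genes. A match is a description of the letters, and binding of these factors was not measured.

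**Figure D3:**
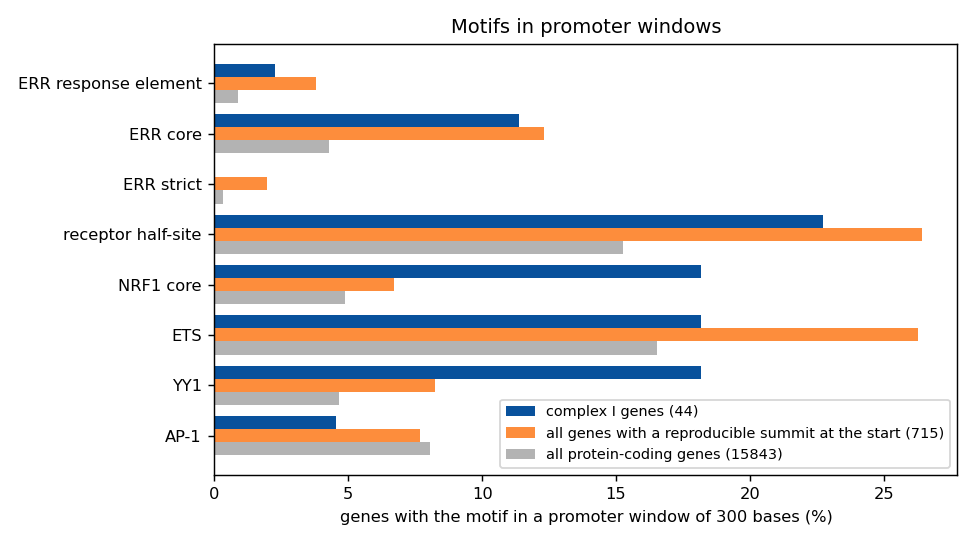
Share of genes (%) with each motif in a promoter window of 300 bases, for 44 complex I genes (blue), the 715 protein-coding genes with a reproducible summit at the start (orange) and all 15843 protein-coding genes in the table (grey). The top 4 rows are TNAAGGTCA, AAGGTCA, TCAAGGTCA and AGGTCA, and the Sp1 box is not drawn. Among complex I genes the NRF1, YY1 and ETS motifs were each found for 8 genes and the full ERR response element for 1.

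Other genes of the pathway were counted by the same rule. Of 8 further factors of complex I biogenesis, 2 had a reproducible summit at the start and 3 had one within 10 kb. Over all protein-coding genes these shares were 4.31% and 18.3%. SFXN4, a factor for complex I and iron-sulfur proteins, had 71.3 and 70.2 (70.8 ± 0.826, SD, n = 2) at 242 bp downstream of its start, above every complex I gene of the main list. TMEM186, a partner of ECSIT in assembly, had 27.0 and 28.2 (27.6 ± 0.839, SD, n = 2) at position -759 from its start. Reproducible summits at a start were found for 2 of 8 genes of complex II, 6 of 15 of complex III, 9 of 27 of complex IV and 6 of 20 of complex V. In the whole matched list these were 4, 8, 15 and 16, beside 31 of 50 for complex I and 8.62% of all protein-coding genes. These lists differ in length and no difference between them was tested.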

How the data were processed

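ERRα ChIP-seq peaks of MDA-MB-231 cells were analysed from the authors' processed files. The submitters' processing notes name build hg38 and, among other tools, MACS2 2.2.6, Bowtie2 2.3.5 and Trim Galore 0.6.5. They give neither settings nor the order of steps, and Picard, SAMtools and deepTools are listed too. Each replicate's list was called against both inputs together, going by the names of the deposited files. The authors deposited a fold (ratio of ChIP over input background), a −log10 p and a −log10 q value for each peak, the lowest −log10 q being 1.35 in replicate 1 and 1.37 in replicate 2. The list of matched peaks has the layout of IDR output, with the deposited IDR score from the authors. Read depth per peak is unknown. Both replicates share the inputs, so their folds share a background.

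Reproducible peaks had an IDR score of at least 540. The fold of each replicate is that of its own strongest peak overlapping the matched interval, so 2 per-replicate columns of the matched list were not used. Peaks on other contigs (371, 358 and 272 in replicate 1, replicate 2 and the matched list) were left out. Gene positions came from RefSeq GRCh38.p14, the build of hg38. A gene's starts came from RefSeq promoter windows. With no genome sequence, the planned motif search within 100 bp of summits was not run. No test was made: a list in 1 condition has no contrast between groups. The genes, classes and lists were chosen with earlier results of these data known. Genes given with both values are those with a reproducible summit at the start and the strongest of each class, and the others are named by status, some with values. Protein-coding neighbours are named where they share a matched summit at a start, and the 2 strongest other complex I factors are named. Alternatives were other windows, peak sets and motifs. Python 3.11.15, pandas 2.3.3 and numpy 2.4.6 were used, and gene calls and motif searches were tested on simulated data.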

Additional observations from a re-analysis of the deposited data

How the results depend on the processing

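The counts depended mainly on the peak set. With the IDR threshold replaced by all matched peaks, or by replicate 1 peaks that overlap a replicate 2 peak by 1 bp or by 50% of both, the genes with a summit within 10 kb numbered 34 in each case, those with a summit at the start 31, the Q-module genes 7 and the membrane-arm genes 16. In these settings the shares of all genes were 30.8%, 30.8% and 29.5% within 10 kb, and 8.62%, 8.69% and 7.9% at the start. Leaving out replicate 1 or replicate 2 gave 35 and 42 genes within 10 kb, 32 and 37 at the start, 5 and 7 N-module genes, 7 and 7 Q-module genes, 17 and 20 membrane-arm genes, 6 and 8 assembly factors and a median strongest fold of 9.27 and 7.28. Over all genes the shares were then 35.9% and 38.9% within 10 kb, and 10.7% and 12.0% at the start. The median was 8.86 with each of the peak sets without IDR, and 17.3 at an IDR of 0.01, where 2 N-module genes remained. Leaving out summits at the end of another protein-coding gene, an alternative chosen after seeing the data, gave 9 genes at the start, against 3.15% of all genes. Promoters with AAGGTCA numbered 5, with TCAAGGTCA 0 and with AGGTCA, also chosen after seeing the data, 10, against 1 with TNAAGGTCA. The median over complex I genes was above that over all genes with reproducible peaks (14.9 against 13.96), at an IDR of 0.01 (17.3 against 16.3) and without replicate 1 (9.27 against 8.47). It was below that over all genes with all matched peaks (8.86 against 9.64) and without replicate 2 (7.28 against 8.15). The cause of these changes was not tested.

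Counts kept within 1.5 times were those with windows of 1 kb or 5 kb in place of 10 kb (18 and 18 genes), a narrower or a 5 kb window around the start (16 and 16), either gene end in place of the start (16), genes with a known start only, added after seeing the data (14 of 44), and NDUFAB1, moved to the Q module (4 there and 7 in the membrane arm). An IDR of 0.01 gave 14 genes within 10 kb and 12 at the start, against 14.9% and 3.43% of all genes. The motif search within 100 bp of summits, with its alternatives, was not run. No paired analysis was possible because no result comes from a test and the inputs enter only through the folds. With 2 ChIP libraries and no read counts, genes without a peak are not shown to lack ERRα.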

Other observations

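Summits below the IDR threshold lay at starts in a share close to that of reproducible ones. At complex I genes 15 of 20 summits below the threshold were at a start (75.0%), as were 16 of 21 reproducible ones (76.2%). Over all summits in or within 10 kb of a protein-coding gene, 21.9% of the 3511 below the threshold lay within 1 kb of a start, and 21.5% of the 3580 reproducible ones. Here a start of any protein-coding gene counted, while the complex I summits were counted at a start of their own gene only. The 15 complex I summits at a start below the threshold had mean folds from 4.66 to 7.65 with a median of 5.88. Over all 4989 matched summits below it, at a start or not, the median was 6.36. The lowest of the 20 complex I summits was 3.64, at NDUFB10 and away from its start. No library with a control antibody or without ERRα was analysed here.

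The YY1 motif AAGATGGC stood within 30 bp of a reproducible summit at NDUFS4 (27.5 bp from its centre) and NDUFA9 (22.5 bp). At NDUFB8 (27.5 bp) and NDUFA3 (25.5 bp) it stood as close to a matched summit below the IDR threshold. In each case the motif was at 10 to 21 bp downstream of the start. At NDUFS7 it was 56.5 bp and at NDUFA6 141.5 bp from the summit, and at NDUFA7 148.5 bp from a summit below the threshold. NDUFAF8, which holds the motif too, had no summit within 10 kb. The NRF1 core stood 33.5 bp from the NDUFS7 summit and the ERR core 132 bp, while at NDUFS6 the NRF1 core stood 121.5 bp and the ERR core 52 bp from the summit. At the other called genes with an NRF1 core it lay farther away, at 332.5 bp for NDUFA6, 344.5 bp for NDUFAF4, 363.5 bp for NDUFAF5 and 611.5 bp for NDUFB4. Other motifs stood as close to some matched summits. The Sp1 box was 13.5 bp away at NDUFS7 and 24.5 bp at ECSIT. At summits below the IDR threshold, the Sp1 box was 8.5 bp away at NDUFB3 and an ETS motif 26 bp at NDUFS3. All these genes and motifs were picked out after their values were seen.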
